A study of Mus musculus with 40 samples.

Results

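The miR-200 family was examined in the hippocampal CA1 region as 5 mature miRNAs out of the 1978 counted: mmu-miR-200b-3p, mmu-miR-200a-3p, mmu-miR-429-3p, mmu-miR-200c-3p and mmu-miR-141-3p, written below without the species prefix. They were chosen by name, as the members of 1 family, and each was counted on 1 precursor. Small RNA libraries came from 40 C57Bl/6J-background mice: at an age of 3 months 5 were wild-type controls and 9 were CamKIIδC TG, and at 6 months 15 were wild-type controls and 11 were CamKIIδC TG. TG mice carry the CaMKIIδC transgene and served as a heart failure model, the controls were littermates, and both sexes were used. The promoter that drives the transgene and the sex of each mouse are not given in the sources used here. The numbered samples were taken as separate mice, so p-values measure the spread between these samples. Groups follow the sample titles. For mice 1 and 2 of the 3-month-old wild-type controls a second label reads TG, so the edgeR comparisons, the correlations among members and with the miRNAs most like them, and the relations of count ratios to the library axis were also computed without them, and the values are given where a call changed, a sign turned or a range ended in 1 of these mice.

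The miR-200 family is best known from epithelial cells, where its members repress the transcription factors Zeb1 and Zeb2 and so help to hold epithelial cells in their state. In the nervous system the family is well known from the olfactory system, and brain tissue can also contain epithelium, such as the choroid plexus. A miRNA recognises its targets mainly through the seed, a short stretch near the 5′ end, so members with the same seed can share targets.

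The mature sequences are shown because the family divides in different ways by seed and by genomic position. They were taken from RefSeq (GRCm38.p6), which held all 5 members, and are written 5′ to 3′ with the seed (bases 2 to 8) in capitals.
miR-200b-3p: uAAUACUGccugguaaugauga
miR-429-3p: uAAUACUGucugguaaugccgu
miR-200c-3p: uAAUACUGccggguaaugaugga
miR-200a-3p: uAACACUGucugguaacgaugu
miR-141-3p: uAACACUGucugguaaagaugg
Among 1679 mature sequences in the table, the seed of the first 3 occurred in these 3 only and that of the other 2 in these 2 only. The 2 seeds differ by 1 base. Over the first 22 bases, miR-200b-3p and miR-200c-3p differed at 2 bases, as did miR-200a-3p and miR-141-3p, and all other pairs at 4 or 5. The nearest mature sequence outside the family differed at 8 of these bases.

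By position the grouping is another one. Mir200b (chr4:156055681-156055750, ENSMUSG00000065549), Mir200a (chr4:156054896-156054985, ENSMUSG00000065400) and Mir429 (chr4:156053905-156053987, ENSMUSG00000065427) lie on the minus strand within 1846 bp. In the GENCODE annotation all 3 are in an intron of Ttll10, a gene for a tubulin-modifying enzyme, and overlap the non-coding Gm13648 on the same strand. Mir200c (chr6:124718322-124718390, ENSMUSG00000065462) and Mir141 (chr6:124717914-124717985, ENSMUSG00000065474) lie on the minus strand within 477 bp, in an intron of the non-coding Gm15884, and Mir141 also overlaps Gm29008, both on the same strand. The pair is between the coding genes Phb2 and Ptpn6. Each genomic cluster therefore holds both seeds.

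Members differed widely in level. As normalised read counts (CPM, counts relative to the library's total miRNA count after that total was adjusted by edgeR's TMM factor), miR-200b-3p averaged 97.1 over the 40 mice and ranked 199 of 1978 miRNAs. The second most abundant member was miR-200a-3p with 62.3 CPM, followed by miR-429-3p with 11.6 CPM. Both chromosome 6 members were scarce, with a mean of 2.42 CPM for miR-200c-3p and 0.544 CPM for miR-141-3p. The annotated mature forms of the members are 22 or 23 bases long, and whether length enters this order was not tested. How efficiently each sequence is captured in a library was not measured. The order miR-200b-3p, miR-200a-3p, miR-429-3p, miR-200c-3p, miR-141-3p was found in 37 of 40 mice. Only the first 2 changed places in more than 1 mouse, with miR-200b-3p above miR-200a-3p in 38 mice. Together the 3 chromosome 4 members made up nearly all reads of the family. In the mouse with the highest share, the chromosome 6 pair reached 6.54% of their count.

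Depth set what could be seen of the scarce members. The libraries held between 1926108 and 22892729 miRNA counts, and a count of 3 corresponded to between 0.0956 and 2.32 CPM on this scale. Across all 40 libraries miR-200b-3p, miR-200a-3p and miR-429-3p had more than 3 counts. For miR-200c-3p, 2 mice had 3 counts or fewer. For miR-141-3p, 18 mice had 3 counts or fewer, and 5 of these had none, which allows a level of up to 3 counts in each.

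**Figure D1:**
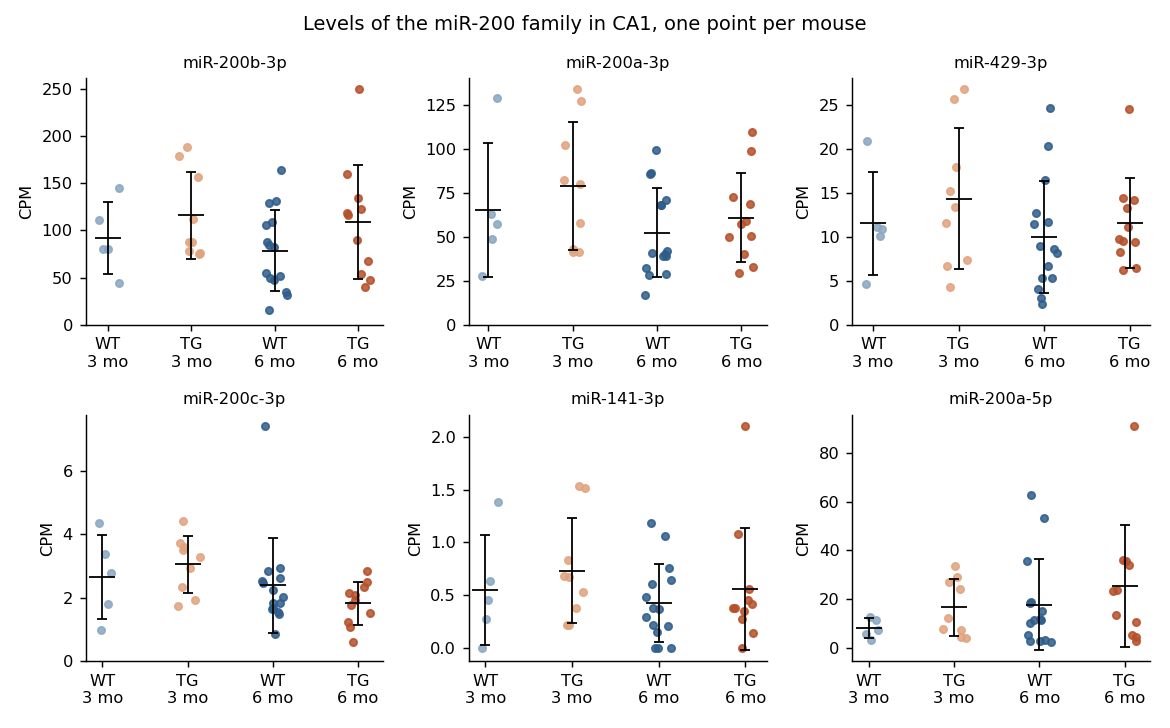
CPM of the 5 members and of miR-200a-5p (vertical axes) in each mouse by group (WT, wild-type control; TG, CamKIIδC TG; mo, months), with mean ± SD in black. Levels of each miRNA overlap between the 4 groups, and for miR-200c-3p all 11 TG mice at 6 months lie below the mean of 3.05 CPM of TG mice at 3 months.

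In CamKIIδC TG mice the levels at 6 months were compared with those at 3 months. Of the family 1 member, miR-200c-3p, was lower at 6 months. At 3 months the 9 TG mice ranged from 1.75 to 4.43 CPM with a median of 3.29 CPM. At 6 months the 11 TG mice ranged from 0.604 to 2.84 CPM with a median of 1.94 CPM. The ranges overlapped, 4 of the 11 older mice were below every younger one, and all 11 were below the mean of the younger ones. The group means were 3.05 ± 0.893 (SD, n = 9) and 1.82 ± 0.665 CPM (SD, n = 11). miR-200c-3p fell by 0.71 on the log2 scale (SE 0.24, adjusted p = 0.0425, edgeR quasi-likelihood test with Benjamini-Hochberg adjustment). It was the only one of 4 members tested to be called, which means an adjusted p under 0.05 with a log2FC beyond 0.26 in either direction. In the same comparison 15.7% of the 629 miRNAs tested were called, and miR-200c-3p was at rank 90 by p. At an unadjusted p under 0.05 it was again the only member, beside 32.4% of all miRNAs.

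This call was close to the threshold. It was lost in a joint fit of the 4 groups (adjusted p = 0.0600) and without the filter on low counts (adjusted p = 0.0872), both in edgeR. It was also lost when any 1 of 12 of the 20 mice was left out, with an adjusted p between 0.0509 and 0.0985 and a log2FC between −0.74 and −0.62. These were TG mice 1, 2, 3, 4, 6, 8 and 10 at 6 months and mice 1, 3, 5, 6 and 7 at 3 months. Counts were low, from 16 to 139 in mice at 3 months and from 3 to 41 at 6 months. The 3-month TG libraries were also deeper, with a median of 18431486 miRNA counts against 9239179 at 6 months. A measure of how libraries differed in the balance of 5p and 3p arms, the library axis described with the arm ratios, had a median of −1.04 at 3 months and 0.54 at 6 months in TG mice. With that axis as a covariate the log2FC of miR-200c-3p was −0.64 (SE 0.22, adjusted p = 0.0251, edgeR).

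The chromosome 4 members were not called in TG mice. miR-200b-3p ranged from 75.3 to 189 CPM at 3 months (median 88.2) and from 40.4 to 249.7 CPM at 6 months (median 116.4). The older mice spread over a wider range than the younger ones, and 4 were below and 1 above all of them. The log2FC was −0.07 (SE 0.30, adjusted p = 0.904). For miR-200a-3p the values were 41.5 to 134 CPM at 3 months (median 80.2) and 29.5 to 109.8 CPM at 6 months (median 57.4). Of the 11 older mice, 9 were below the younger median, and the log2FC was −0.36 (SE 0.27, adjusted p = 0.361). miR-429-3p ranged from 4.26 to 26.9 CPM (median 13.5) and from 6.19 to 24.6 CPM (median 9.82), so the older range lay within the younger one. Its log2FC was −0.30 (SE 0.31, adjusted p = 0.509). Over the 4 members tested the median log2FC was −0.33, beside −0.09 over all 629 miRNAs.

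miR-141-3p had too few counts for this fit and was compared on its own. It ranged from 0.216 to 1.53 CPM at 3 months (median 0.669) and from 0 to 2.10 CPM at 6 months (median 0.380), and the ranges overlapped, with 2 of 11 older mice below and 1 above the younger ones. The difference in mean log2 CPM was −0.44 (exact permutation test, two-sided, p = 0.294). This is 1 of 3 such tests, and the p-values are not adjusted.

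The same comparison in wild-type control mice called no member. Of all 660 miRNAs tested, 0.152% were called, and 15.5% had an unadjusted p under 0.05, with no member among them. The 5 younger mice, numbered 1 to 5, had 80.6, 145, 111, 43.9 and 80.4 CPM of miR-200b-3p, and the 15 older mice ranged from 15.7 to 164 CPM with a median of 82.2. The groups overlapped, with 3 older mice below and 1 above the younger range. For miR-200a-3p the 5 mice had 48.6, 129, 62.8, 27.7 and 57.2 CPM, and the older mice ranged from 17.1 to 99.3 CPM with a median of 40.8. For miR-429-3p they had 11.2, 21.0, 10.1, 4.61 and 10.9 CPM, and the older range was 2.38 to 24.7 CPM with a median of 8.59. In all 3 miRNAs mouse 2 was the highest and mouse 4 the lowest of the younger controls.

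Neither chromosome 6 member followed that pattern in full. Mice 1 to 5 had 3.36, 2.76, 1.80, 4.35 and 0.992 CPM of miR-200c-3p, so that mouse 4 was the highest, and the older controls ranged from 0.847 to 7.40 CPM (median 2.03). For miR-141-3p mice 1 to 5 had 0, 1.38, 0.449, 0.636 and 0.270 CPM, so that mouse 2 was again the highest but mouse 4 was not the lowest. The older controls ranged from 0 to 1.18 CPM (median 0.370). The log2FC was −0.24 (SE 0.38) for miR-200b-3p, −0.32 (SE 0.35) for miR-200a-3p, −0.19 (SE 0.41) for miR-429-3p and −0.15 (SE 0.34) for miR-200c-3p. Their adjusted p-values in edgeR ranged from 0.686 to 0.864. For miR-141-3p the difference in mean log2 CPM was −0.22 (exact permutation test, p = 0.695). Without mice 1 and 2, the log2FC turned positive for miR-200a-3p (0.09) and miR-429-3p (0.25), and no member was called.

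Between genotypes no member was called at either age, where 0% of 695 miRNAs at 3 months and 0% of 612 at 6 months were called. At an unadjusted p under 0.05, edgeR gave 7 miRNAs at 3 months (1.01%) and 3 at 6 months (0.49%), with no member among them. At 3 months all 5 members had a higher fitted level in TG mice, with a log2FC from 0.15 (SE 0.32) for miR-200c-3p to 0.33 (SE 0.58) for miR-141-3p and an adjusted p of 0.998 for each. The median of the 5 was 0.29, beside 0.04 over all miRNAs. Without mice 1 and 2 of the controls these values were 0.31 to 0.77, again with no call. The largest of these was that of miR-429-3p.

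At 6 months the signs divided. The log2FC of TG against wild-type control mice was 0.46 (SE 0.31) for miR-200b-3p, 0.19 (SE 0.25) for miR-200a-3p, 0.18 (SE 0.30) for miR-429-3p and −0.40 (SE 0.26) for miR-200c-3p. Each had an adjusted p of 0.992. Among the 612 miRNAs, 99.3% had a log2FC below that of miR-200b-3p and 3.3% one below that of miR-200c-3p. The levels overlapped in both cases. For miR-200b-3p 1 of 11 TG mice was above all controls, and for miR-200c-3p 1 of 11 was below all of them. For miR-141-3p the difference in mean log2 CPM was 0.28 (permutation test, p = 0.493).

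Whether age acted differently in the genotypes was tested directly as an interaction of age and genotype, which called 0% of 699 miRNAs. Of the 14 miRNAs (2%) with an unadjusted p under 0.05 in edgeR, none was a member. For miR-200c-3p the change with age in TG mice minus that in controls was −0.58 on the log2 scale (SE 0.42, adjusted p = 0.986), and without mice 1 and 2 of the 3-month-old controls it was −0.75 (adjusted p = 0.993, edgeR). The fall of miR-200c-3p with age was thus not shown to differ between TG and control mice. The comparisons of a group with 2 others share its mice and are not independent.

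**Figure D2:**
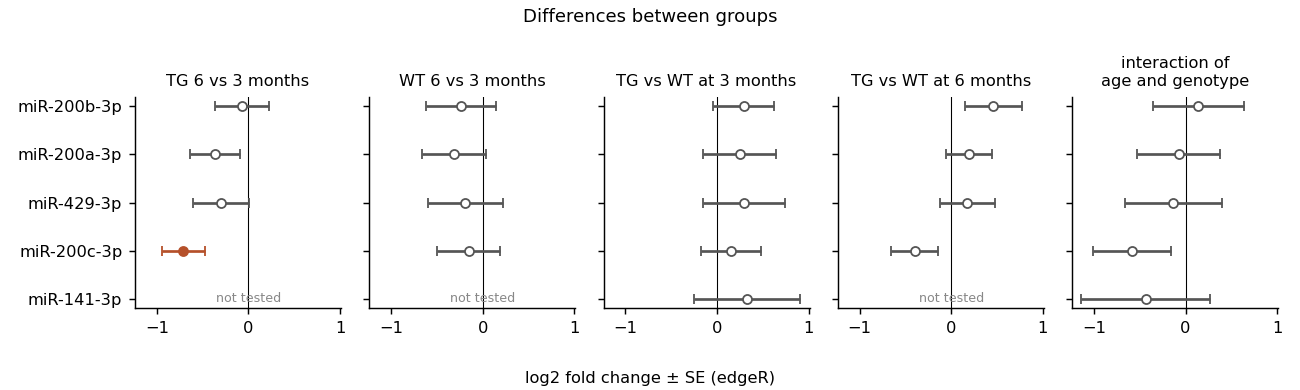
The log2FC ± SE (horizontal axes) of each member in the 5 edgeR comparisons, with a filled point for a called member and "not tested" where miR-141-3p had too few counts. Only miR-200c-3p between the ages in TG mice (−0.71) is filled.

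Mice differed widely in the levels of the members. Over all 40 mice, groups included, the highest level exceeded the lowest 15.9-fold for miR-200b-3p, 7.87-fold for miR-200a-3p and 11.3-fold for miR-429-3p. For the scarce miR-200c-3p it did so 12.3-fold, and miR-141-3p had no counts in its lowest mice. These ranges were not set beside those of all miRNAs. The biological coefficient of variation within groups, as edgeR estimates it, was 0.499 for miR-200b-3p, 0.455 for miR-200a-3p, 0.525 for miR-429-3p, 0.384 for miR-200c-3p and 0.589 for miR-141-3p. Its median over all 699 miRNAs was 0.365. For 4 of the 5 members the dispersion was above the value edgeR fits for miRNAs of like abundance, by 1.32 to 1.81 times, and for miR-200c-3p it was below (0.833 times). Relative to the value fitted for like abundance, 84.5% of all miRNAs had a lower dispersion than miR-200b-3p. This share was 75.1% for miR-200a-3p, 83.0% for miR-429-3p and 87.0% for miR-141-3p. For miR-200c-3p it was 52.4%, so that miR-200c-3p was near the middle of all miRNAs. The same mouse, number 8 of the 6-month-old controls, had the lowest level of all 3 chromosome 4 members, with 15.7, 17.1 and 2.38 CPM.

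Mice that were high in one chromosome 4 member were high in the others. After the group means were subtracted from log2 CPM, Pearson's r over the 40 mice was 0.880 for miR-200b-3p with miR-200a-3p (Spearman's rho 0.878), 0.757 for miR-200b-3p with miR-429-3p (rho 0.775) and 0.891 for miR-200a-3p with miR-429-3p (rho 0.865). Each had a permutation p of 1e-05 for r and for rho, the smallest that 100000 permutations within groups can give, and an adjusted p of 0.00205 over 3485 relations (0.00348 for rho). Without the 2 mice farthest from the median the 3 correlations were 0.854, 0.754 and 0.871. Within the 3 groups of 9 or more mice, r of these pairs lay between 0.692 and 0.963, given as a description. These 3 members share a genomic cluster, and the seed of miR-200a-3p differs from that of the other 2.

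Taken over all mice, the chromosome 6 members did not move with this group in the same way. For miR-200c-3p, r was 0.011 with miR-200b-3p, although these 2 share the seed and differ at 2 bases only. With miR-429-3p r was 0.082 and with miR-200a-3p 0.121, and the adjusted permutation p of the 3 relations lay between 0.672 and 0.973. Within 3-month-old TG mice, 6-month-old TG mice and 6-month-old controls, given as a description, r with miR-200b-3p was 0.531, −0.201 and 0.102. With miR-200a-3p it was 0.417, 0.016 and 0.241, and with miR-429-3p 0.245, −0.0645 and 0.197. For miR-200c-3p with its neighbour miR-141-3p, r was 0.440 (rho 0.399, permutation p = 0.00872, adjusted p = 0.0730, 0.281 without the 2 farthest mice). Without mice 1 and 2 of the 3-month-old controls this relation passed (r 0.519, adjusted permutation p = 0.0447), and r of miR-200c-3p with miR-200b-3p was −0.0053. miR-141-3p passed with miR-200a-3p, which has the same seed (r 0.565, rho 0.568, permutation p = 0.000380, adjusted p = 0.0185, 0.533 without the 2 farthest mice). It did not pass with miR-429-3p (r 0.449, adjusted permutation p = 0.0532) or miR-200b-3p (r 0.292, adjusted permutation p = 0.271). In the 3 groups above, r of miR-141-3p was 0.788, 0.460 and 0.593 with miR-200a-3p and 0.734, 0.211 and 0.530 with miR-429-3p. With miR-200b-3p it was 0.501, 0.311 and 0.237. The part of low counts in the r values of the chromosome 6 members was not tested. In all, 4 of the 10 pairs of members passed. Over all other miRNAs the share that passed was 2.58% with miR-200b-3p, 4.3% with miR-200a-3p, 13% with miR-429-3p, 0% with miR-200c-3p and 24.8% with miR-141-3p. At an unadjusted permutation p under 0.05, the pair of miR-200c-3p and miR-141-3p was the only pair of miR-200c-3p with a member.

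**Figure D3:**
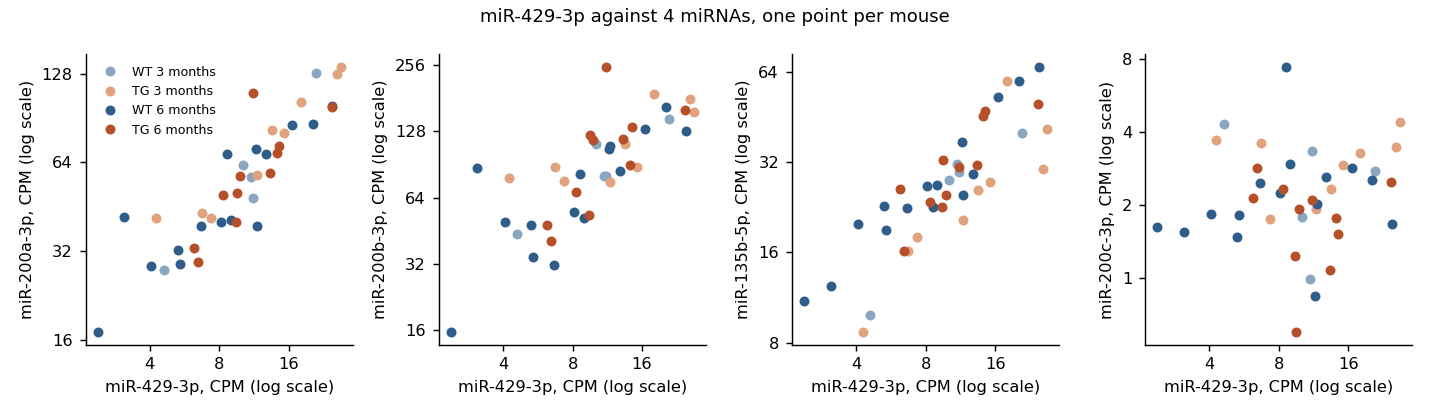
CPM of miR-200a-3p, miR-200b-3p, miR-135b-5p and miR-200c-3p (vertical axes) against miR-429-3p (horizontal axes) in each of the 40 mice, all on log scales and coloured by group. The first 3 rise with miR-429-3p (r 0.891, 0.757 and 0.914 after the group means were subtracted) and miR-200c-3p does not (r 0.082).

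Outside the family the miRNAs with the patterns most like each chromosome 4 member were few and partly the same. For miR-429-3p the miRNA with the highest r of all 698 others was miR-135b-5p, with r 0.914 and rho 0.916. The next outside the family were miR-592-5p (r 0.764, rho 0.673) and miR-135a-5p (r 0.728, rho 0.712). For miR-200a-3p they were miR-135b-5p (r 0.830, rho 0.843), miR-383-5p (r 0.762, rho 0.748) and miR-592-5p (r 0.655, rho 0.604). For miR-200b-3p they were miR-383-5p (r 0.842, rho 0.797), miR-135b-5p (r 0.724, rho 0.763) and miR-135b-3p (r 0.562, rho 0.508). Of these 9 relations all passed for r, with an adjusted permutation p from 0.00205 to 0.0230, and 8 passed for rho, the exception being miR-135b-3p (adjusted permutation p = 0.0504). Without the 2 farthest mice r remained between 0.429 and 0.892. Of their precursors, Mir135b lies in an intron of Lemd1 (chr1:132198088-132198184), and Mir592 in an annotated exon of Grm8, a metabotropic glutamate receptor gene (chr6:27936655-27936750).

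Apart from the scarce miR-135b-3p, these miRNAs had levels of the same order as the chromosome 4 members or above. The group medians of miR-135b-3p ranged from 0.342 to 1.115 CPM. miR-135b-5p had group medians from 24.8 to 30.8 CPM, miR-592-5p from 54.0 to 71.9 CPM, miR-135a-5p from 139 to 197 CPM and miR-383-5p from 258 to 288 CPM. As with the family, the 4 groups overlapped in each.

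For miR-200c-3p the 3 highest outside the family were miR-1251-5p (r 0.455), miR-6977-3p (r 0.446) and miR-344h-3p (r 0.397), with adjusted permutation p-values from 0.0531 to 0.108. For miR-141-3p they were miR-466f-3p (r 0.669, rho 0.693) and, with identical counts to each other, miR-669o-3p and miR-669a-3p (r 0.667, rho 0.617). These relations of miR-141-3p passed (adjusted permutation p = 0.00205), as did those of 24.8% of all miRNAs with it. With the library axis removed, a measure described with the arm ratios, miR-466f-3p still passed (r 0.571, adjusted permutation p = 0.0375), and the other 2 did not (r 0.555, adjusted permutation p = 0.0610).

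Libraries also differed in a way that touches these correlations. In each hairpin the 5p and the 3p arm can both give a mature miRNA, and the ratio of the arms of many miRNAs shifted together between libraries. A single component of the 5p to 3p ratios of 82 miRNAs outside the family held 74.5% of their variance over the 40 mice and is called the library axis here. It was built after the data had been seen. After the group means were subtracted, it moved with the log2 number of miRNA counts (r −0.737, rho −0.692, permutation p = 1e-05, −0.684 without the 2 farthest mice). Of all 699 miRNAs, 66.7% had an r beyond 0.5 with the axis in either direction. Those of the members, over all 40 mice, were smaller: 0.176 for miR-200b-3p, −0.231 for miR-200a-3p, −0.410 for miR-429-3p, −0.190 for miR-200c-3p and −0.449 for miR-141-3p. Only that of miR-141-3p passed (adjusted permutation p = 0.0480). Within groups, given as a description, r differed. In TG mice at 3 and 6 months it was −0.261 and 0.654 for miR-200b-3p, and −0.675 and 0.387 for miR-200a-3p. For miR-429-3p it was −0.755 and 0.032. In 6-month-old controls the 3 values were 0.176, −0.204 and −0.360. Removal of the axis used a common slope for all groups.

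With the axis removed as well as the group means, the chromosome 4 members were closer to each other. For miR-200b-3p r became 0.961 with miR-200a-3p and 0.923 with miR-429-3p, and for miR-200a-3p with miR-429-3p it was 0.897 (adjusted permutation p = 0.00158 each). The count ratio of miR-200b-3p to miR-200a-3p moved with the axis (r 0.795), so part of their closer relation follows from the removal itself. The relation of miR-200a-3p with miR-141-3p no longer passed (r 0.530, adjusted permutation p = 0.0551). The r of miR-429-3p with miR-135b-5p was 0.907, and that of miR-200b-3p with miR-383-5p 0.846. The share of other miRNAs that passed was then 2.44%, 3.01% and 2.58% for miR-200b-3p, miR-200a-3p and miR-429-3p, 0% for miR-200c-3p and 0.57% for miR-141-3p.

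The effect was largest for the 2 arms of Mir200a. Its hairpin is shown because both arms were well counted, with the 5p arm first and the 3p arm second, both in capitals (RefSeq, GRCm38.p6).
Mir200a: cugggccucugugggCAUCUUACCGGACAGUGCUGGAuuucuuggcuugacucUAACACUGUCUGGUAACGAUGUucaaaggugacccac
miR-200a-5p had 6024 counts over all mice and a mean of 18.4 CPM, beside 35427 counts of miR-200a-3p. The other 5p arms were scarce. miR-200b-5p had 277 counts in all, miR-141-5p 4, miR-200c-5p 1 and miR-429-5p none in 40 libraries.

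The count ratio of miR-200a-5p to miR-200a-3p went from 0.0437 in mouse 2 of the 3-month-old controls to 1.61 in mouse 4 of the 6-month-old controls, a 36.8-fold range. Without mice 1 and 2 of the 3-month-old controls the lowest ratio was 0.0483, in TG mouse 7 at 3 months. The 5p arm exceeded the 3p arm in 2 mice. Group medians were 0.126 in controls and 0.0970 in TG mice at 3 months, and 0.148 and 0.324 at 6 months, with ranges that overlapped. After the group means were subtracted, the log2 ratio moved with the library axis, with r 0.977 and rho 0.973 (permutation p = 1e-05, adjusted p = 3e-05 over 12 relations of ratios). Without the 2 farthest mice r was 0.971. The ratio also moved with the number of miRNA counts (r −0.691, rho −0.693, adjusted permutation p = 3e-05, −0.660 without the 2 farthest mice) and with the share of spike-in oligos (r 0.705, rho 0.729, adjusted permutation p = 3e-05, 0.741 without them). The axis had medians of −0.51 in controls and −1.04 in TG mice at 3 months, and −0.30 and 0.54 at 6 months. What the axis stands for was not tested.

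Before removal of the axis, miR-200a-5p had an r of 0.316 with miR-200a-3p from the same hairpin (rho 0.259, permutation p = 0.0536, adjusted p = 0.210, 0.280 without the 2 farthest mice). After removal r was 0.934 (rho 0.931, adjusted permutation p = 0.00158, 0.931 without the 2 farthest mice). The log2 ratio of the 2 arms moved closely with the axis (r 0.977). Removal therefore takes away most of the difference between the arms, so this r and its p-value are not a separate result. For miR-200a-5p with miR-200b-3p r went from 0.673 to 0.959 and with miR-429-3p from 0.134 to 0.929. With miR-200c-3p it stayed low, at −0.169 and −0.020. Between groups miR-200a-5p was not called, with a log2FC of 0.61 (SE 0.55) between the ages in TG mice, 1.05 (SE 0.66) in controls, 0.95 (SE 0.52) between genotypes at 3 months and 0.53 (SE 0.55) at 6 months. Adjusted p-values in edgeR were 0.444, 0.463, 0.998 and 0.992.

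Even between 2 members of the same arm and cluster the ratio was not constant. The count ratio of miR-200b-3p to miR-200a-3p ranged from 0.810 to 2.805 and moved with the library axis (r 0.795, rho 0.842, adjusted permutation p = 3e-05, 0.745 without the 2 farthest mice). The ratio of miR-429-3p to miR-200a-3p ranged from 0.0741 to 0.299 and moved the other way (r −0.477, rho −0.398, adjusted permutation p = 0.00478, −0.583 without the 2 farthest mice). For the chromosome 6 pair over the chromosome 4 members, no relation with the axis was found (r −0.202, rho −0.282, adjusted permutation p = 0.235, −0.126 without the 2 farthest mice).

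**Figure D4:**
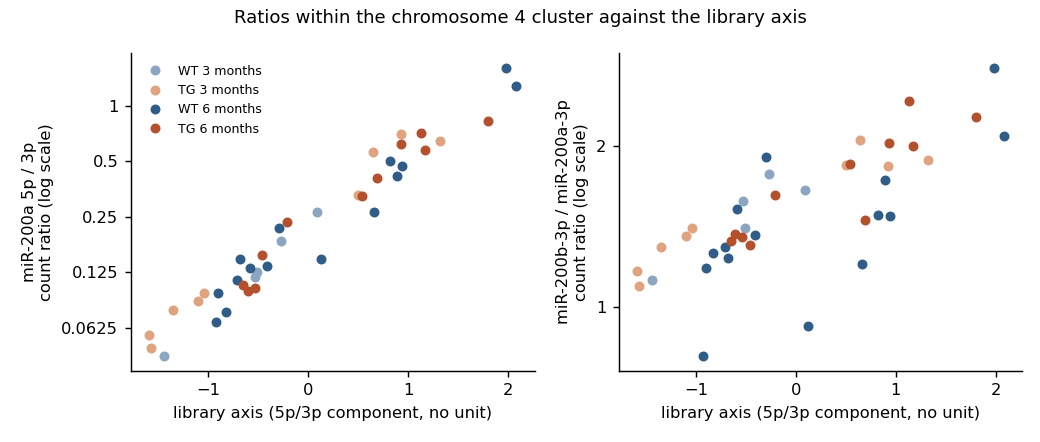
Count ratios of miR-200a-5p to miR-200a-3p and of miR-200b-3p to miR-200a-3p (vertical axes, log scales) against the library axis (horizontal axes, no unit) in each mouse, coloured by group. The first ratio spans 0.0437 to 1.61 along the axis with r 0.977, and the second 0.810 to 2.805 with r 0.795, both after the group means were subtracted.

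CA1 tissue can carry other tissue along, and in bulk samples fewer cells of a type and less RNA per cell cannot be told apart. All 7 miRNAs in a list known from neurons were detected, and miR-128-3p averaged 164700 CPM. Since neurons occur throughout the brain, this checks neither the region nor the part of other tissue. Other lists of miRNAs known from particular tissues were set beside the family. Summed over 11 other epithelial and endocrine miRNAs, led by miR-192-5p, group medians were 770 CPM in controls and 900 CPM in TG mice at 3 months, and 966 and 1257 CPM at 6 months. Between the ages in TG mice edgeR called 0 of the 10 tested (median log2FC 0.017), beside 15.7% of all miRNAs. Over all 696 miRNAs outside the chromosome 4 members, 14.8% passed with at least 1 of these members, and 3.16% with the axis removed. Of the 10 epithelial miRNAs that could be correlated, 2 passed, miR-31-5p and miR-194-5p, and with the axis removed 2 passed, miR-31-5p and miR-182-5p. For rho with miR-429-3p before removal, miR-31-5p passed (adjusted permutation p = 0.0248) and miR-194-5p did not (adjusted permutation p = 0.0962). Before removal of the axis, r with the mean of the 3 members ranged from −0.181 to 0.387 in this list, and that of miR-192-5p was −0.0954. With the axis removed the range was −0.102 to 0.578, and that of miR-192-5p was 0.187. The names of miR-194-5p and miR-182-5p were chosen after their values were seen.

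The choroid plexus and ciliated epithelium list held 9 miRNAs. Of those that could be correlated, all but miR-449a-5p had a negative r with the mean of the 3 chromosome 4 members. The same held with the axis removed (r from −0.2827 to 0.4635). The leading miRNA of the list, miR-204-5p, averaged 686 CPM over the mice and had an r of −0.288 before removal. The highest r in the list was 0.436 for miR-449a-5p, at 0.788 CPM, which passed with miR-429-3p (r 0.607, adjusted permutation p = 0.00972) and miR-200a-3p (r 0.463, adjusted permutation p = 0.0491). Of 8 that could be correlated, 2 passed with at least 1 chromosome 4 member, beside 14.8% of all 696 miRNAs outside these members. The 2 were miR-449a-5p and, chosen after its values were seen, miR-204-3p with a negative r. For rho with miR-429-3p, miR-449a-5p passed (adjusted permutation p = 0.00536) and miR-204-3p did not (adjusted permutation p = 0.0638). With the axis removed none of the list passed, beside 3.16% of all. The summed list ranged from 534 to 1146 CPM in controls and from 482 to 875 CPM in TG mice at 3 months, and from 696 to 2617 CPM and from 802 to 1218 CPM at 6 months. In TG mice 2 of its 8 tested miRNAs were called higher at 6 months, beside 15.7% of all 629 miRNAs called in either direction. The 2 were miR-204-5p (log2FC 0.89, adjusted p = 0.000602, edgeR) and miR-211-5p (log2FC 1.07, adjusted p = 0.00103, edgeR). In the same comparison miR-200c-3p was lower.

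In the blood list 0 of 9 miRNAs passed with a chromosome 4 member, in the oligodendrocyte list 0 of 4 and in the neuron list 0 of 7, by permutation over all relations, beside the 14.8% of all miRNAs. In the vessel list 2 of 7 passed and in the list for muscle, heart and liver 2 of 5, and with the axis removed none of either did. These 4 were miR-126a-5p, miR-145a-3p, miR-122-5p and miR-499-5p, named after their values were seen except for miR-145a-3p and miR-499-5p. The r of miR-122-5p was negative (−0.517 with miR-429-3p). For rho with miR-429-3p, only miR-499-5p passed (adjusted permutation p = 0.0131). The adjusted permutation p of rho was 0.0966 for miR-126a-5p, 0.112 for miR-145a-3p and 0.0746 for miR-122-5p. Between the ages in TG mice, where 15.7% of all miRNAs were called, edgeR called 1 of the 9 blood miRNAs higher (miR-451a, log2FC 0.68) and 2 lower (miR-144-3p, log2FC −0.98, and miR-150-5p, log2FC −0.71). It called 1 of 6 vessel miRNAs (miR-126a-3p, log2FC 0.73) and 1 of 7 neuronal miRNAs (miR-128-3p, log2FC 0.73) higher. It called 2 of 4 oligodendrocyte miRNAs (miR-219a-2-3p, log2FC −0.57, and miR-338-3p, log2FC −1.02) and 1 of 5 of muscle, heart and liver (miR-1a-3p, log2FC −0.80) lower. The part of other tissue in the level of miR-200c-3p was not tested. No miRNA of any list was called in the other comparisons.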

How the data were processed

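Small RNA libraries of CA1 were sequenced by the authors, 3′ adapters were trimmed with cutadapt, reads were mapped to mm10 with mirdeep2 and miRNAs were annotated with miRBase. The authors deposited raw counts for 2128 pairs of a mature miRNA and a precursor, and the same values scaled to the library total as RPM, which were checked to equal the counts divided by all counts (largest difference 0.005). Totals held 52 spike-in entries, left out here. Each miRNA was taken from its precursor with the highest total. Counts were tested with edgeR 4.0.16 (filterByExpr, TMM, quasi-likelihood, R 4.3.3) on the 2 groups of a comparison, with Benjamini-Hochberg adjustment over all miRNAs tested. Those with low counts were compared by permutation of log2 CPM (prior count 2). Correlations used log2 CPM with group means subtracted and 100000 permutations within groups (scipy 1.17.1). No 2 libraries of a group agreed within sampling noise (smallest chi-square per degree of freedom 101.8). Limits from counts cover counting error only. Alternatives included DESeq2 1.42.0, limma 3.58.1 on RPM, other scalings, filters and covariates. Scripts were tested on simulated data. Miscounting between members differing by 2 bases was not examined. Members and lists were chosen with earlier results of these data known. The miRNAs named besides the members were their 5p arms, the 3 with the highest r per member and, per list, the most abundant, the highest in r and any called.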

Additional observations from a re-analysis of the deposited data

Results flagged for a closer look

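In 20 sets of values from the 3-month-old groups, 5 control and 9 TG mice, the mouse farthest out was compared with the rest by Dixon's criterion, which flags about 1 in 20 sets by chance. It singled out 2. In mouse 4 of the controls the chromosome 6 pair reached 6.54% of the chromosome 4 count, beside a group median of 1.40%: this mouse had the lowest level of each chromosome 4 member and the highest of miR-200c-3p in its group. In mouse 3 of the TG mice the ratio of miR-429-3p to miR-200a-3p was 0.103, beside a group median of 0.177, and the library axis stood at 1.32, the highest of its group. The cause was not tested for either.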

How the results depend on the processing

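In TG mice 1 of 4 members was called between the ages. That number was 0 with no low-count filter (miR-200c-3p log2FC −0.77, adjusted p = 0.0872), 0 with a mean of at least 10 CPM required, where miR-200c-3p was not tested, 0 in a joint fit of the 4 groups (−0.72, adjusted p = 0.0600), and 0 to 1 with 1 mouse left out. It was 1 under the other alternatives, and the log2FC of miR-200c-3p lay between −0.84 and −0.51 over all of them. In the other 4 comparisons no alternative called a member. The cause of the lost calls was not tested.

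Values that were not called changed sign in places. With 1 mouse left out, the log2FC between the ages ranged from −0.27 to 0.0463 for miR-200b-3p in TG mice, and in controls from −0.52 to 0.10 for miR-200a-3p, −0.40 to 0.16 for miR-429-3p, −0.37 to 0.11 for miR-200c-3p and −0.68 to 0.15 for miR-141-3p. Between genotypes it ranged from −0.0461 to 0.44 for miR-200c-3p at 3 months and from −0.0408 to 0.34 for miR-429-3p at 6 months. With the library axis as a covariate, added after the data were seen, miR-429-3p gave 0.0041 between the ages in TG mice and 0.0732 in controls. In controls, leaving out mice 1 and 2 at 3 months or counting them as TG gave 0.0923 for miR-200a-3p and 0.25 for miR-429-3p. For miR-141-3p between genotypes at 6 months, edgeR gave −0.0777 with no low-count filter and −0.0758 in the joint fit. In the interaction, 2 RUVr factors gave 0.0176 for miR-200a-3p and 0.0451 for miR-429-3p, limma gave 0.08 and 0.17 for miR-429-3p with a pseudocount of 1 and 0.1, and mice 1 and 2 left out or counted as TG gave −0.12 and −0.12 for miR-200b-3p.

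Same-numbered mice had a mean r of 0.226 between the ages in TG mice, with 7 of 9 pairs above 0.1 and a lowest r of −0.524, and of 0.259 between genotypes at 6 months, with 9 of 11 pairs above 0.1 and a lowest r of −0.56. In controls between the ages the mean was 0.035 and between genotypes at 3 months 0.007. Since not every pair was above 0.1 and no label ties the numbers to a shared litter or day, the numbers were not taken as pairs. When replicate numbers entered the fit as a block, the call count in TG mice was 1 and no other call changed. The block turned miR-200a-3p (−0.0185) and miR-429-3p (−0.22) between genotypes at 3 months, and miR-200a-3p (0.22) and miR-429-3p (0.38) in the interaction.

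Of the 10 member pairs, 7 in place of 4 passed on the deposited normalized values, 6 with RLE size factors, 6 without centring, 5 without mice 1 and 2 of the 3-month-old controls, 3 in 6-month-old mice alone and 3 with the library axis removed. Leaving out mice 1 and 2 and removing the axis were chosen after seeing the data. The 3 pairs on chromosome 4 passed in each of these. The r of miR-200b-3p with miR-200c-3p was −0.0076 in 6-month-old mice, −0.0053 without mice 1 and 2 and −0.0667 without the 2 farthest mice. The number of members above the dispersion trend was 4 under each alternative. Depth limits miR-141-3p most, with 18 of 40 mice at 3 counts or fewer.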
